A study of Homo sapiens with 192 samples.

Results

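Metallothioneins are small metal-binding proteins, and the 8 genes described here are the metallothionein genes MT1E, MT1F, MT1G, MT1H, MT1M, MT1X and MT2A together with MTF1, which encodes their metal-sensing transcription factor. They were chosen by name from the 58243 genes of the count tables, with earlier results of these data known. All 8 were among the 19387 genes that passed the filter on low counts, but MT1H and MT1M had more than 3 counts in LS174T libraries alone, so both passed through that line, and MT1H only through its 3D libraries. RNA was sequenced from 4 established human colorectal cancer (CRC) cell lines. The study maintained HCT116 in McCoy medium and the other lines in DMEM, so line and medium cannot be told apart for HCT116. HT29 and LS513 are described in the study as microsatellite stable, HCT116 and LS174T as microsatellite instable. Cultures of every line were kept either in 2D or in 3D, which makes 8 groups of 3 libraries. The labels give no drug treatment for these 8 groups and no time in culture. Each line is a single model, and nothing in the labels says that the 3 libraries of a group came from separate cultures, so the p-values measure the spread between these libraries, which may be technical.

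Metallothioneins hold zinc and copper, and also cadmium, through clusters of cysteine residues, and they buffer the free zinc and copper of the cell. MTF1 binds zinc through its zinc fingers, moves to the nucleus and binds metal response elements in the promoters of the metallothionein genes and of the zinc exporter gene SLC30A1. In the colon, metallothioneins are made by epithelial cells, and their levels are known to differ between normal mucosa and tumours.

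The 7 metallothionein genes lie within 76.0 kb of chromosome 16 (GRCh38, chr16:56608199-56684196), from MT2A at one end to MT1X at the other, and MT1G alone is on the minus strand. MTF1 is on the minus strand of chromosome 1 (chr1:37809567-37859620). In GENCODE 29 the main coding transcript of each metallothionein gene has 3 exons and 183 coding bases before the stop codon, of which 20 of 61 codons (32.8%) encode cysteine. Of these coding sequences 4 are shown because they are the pairs that differ least and most, with every cysteine codon in capitals.
MT2A: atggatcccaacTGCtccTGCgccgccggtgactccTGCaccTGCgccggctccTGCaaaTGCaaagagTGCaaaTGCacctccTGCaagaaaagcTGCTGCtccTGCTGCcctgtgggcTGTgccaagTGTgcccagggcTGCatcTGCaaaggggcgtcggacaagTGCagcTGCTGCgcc
MT1G: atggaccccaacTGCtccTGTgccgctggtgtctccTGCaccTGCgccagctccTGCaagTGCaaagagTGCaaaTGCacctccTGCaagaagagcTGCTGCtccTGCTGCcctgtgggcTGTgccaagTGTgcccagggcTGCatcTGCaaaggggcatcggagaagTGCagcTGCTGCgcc
MT1F: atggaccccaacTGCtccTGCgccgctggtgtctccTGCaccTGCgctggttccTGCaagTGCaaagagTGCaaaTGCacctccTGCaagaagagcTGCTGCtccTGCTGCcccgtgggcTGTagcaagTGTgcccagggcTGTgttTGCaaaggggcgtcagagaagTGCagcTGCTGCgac
MT1X: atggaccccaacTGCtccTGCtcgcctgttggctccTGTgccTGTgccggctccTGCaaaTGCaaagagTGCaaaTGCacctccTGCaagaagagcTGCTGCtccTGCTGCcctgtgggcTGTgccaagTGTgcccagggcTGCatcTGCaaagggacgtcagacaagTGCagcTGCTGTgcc
MT2A and MT1G were identical at 174 of 183 bases (95.1%), the closest of the 21 pairs of metallothionein genes, and MT1F and MT1X at 162 (88.5%), the most distant. The cysteine codons stand at the same places in all 4 sequences shown.

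Reads were 75 bases long, and reads that aligned more than once were removed before counting, so identical stretches bear on the counts. No 75-base window of the main transcripts of MT2A and MT1F was found in a transcript of another gene. In MT1E and MT1M such windows made up 0.794% and 0.132% of the transcript. MT1G shared 6.63% of its windows, MT1H 10.8% and MT1X 31.6%. Trimmed reads down to 41 bases were kept, and with windows of that length the shared part was 8.45% for MT2A, 5.08% for MT1F, 8.43% for MT1E, 12.2% for MT1M, 25.1% for MT1G, 26.6% for MT1H and 46.8% for MT1X. MT1X also shares 18.1% of its exonic bases with AC026461.1, a gene on the same strand. The counts of MT1X, and less so of the other genes, MT1H and MT1G foremost, are therefore uncertain as absolute levels, while their comparison between groups uses the same windows throughout.

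The metal response element was searched for as TGCACNC and TGCGCNC on both strands in the 250 bases before the RefSeq start of each gene (GRCh38.p14). Promoters of 4 of the 8 genes were matched, those of MT1H, MT1X, MT2A and MTF1. MT1H and MT1X are shown because their 3D and 2D levels are compared below in the lines that express them, and capitals mark the matches. Bases of MT1X that are exonic in GENCODE 29 are left out.
MT1H (plus strand, chr16:56669564-56669813): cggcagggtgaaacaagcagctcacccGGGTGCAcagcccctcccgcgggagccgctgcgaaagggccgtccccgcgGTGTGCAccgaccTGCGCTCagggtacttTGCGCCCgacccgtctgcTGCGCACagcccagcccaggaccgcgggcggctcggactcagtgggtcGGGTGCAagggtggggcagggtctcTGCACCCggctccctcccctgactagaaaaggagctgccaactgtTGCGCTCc
MT1X (plus strand, chr16:56682220-56682423): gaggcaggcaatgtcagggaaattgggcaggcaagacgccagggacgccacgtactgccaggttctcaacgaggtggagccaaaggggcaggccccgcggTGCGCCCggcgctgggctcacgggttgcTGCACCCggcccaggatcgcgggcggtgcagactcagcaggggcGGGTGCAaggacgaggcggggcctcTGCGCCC
MT1H held 8 matches, none overlapping another, and 6 of the 35116 RefSeq promoters searched (0.0171%) held as many or more. MT1X held 4 matches, a number reached by 130 promoters (0.370%). MT2A held 7 matches, a number reached by 11 promoters (0.0313%), in a window that GENCODE 29 annotates as exonic in a longer transcript. MTF1 held none, and 24.8% of all promoters held at least 1. A match is a description of letters and not a binding site.

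The libraries held between 18723942 and 34277421 counts each. A floor of 3 counts then lies between 0.0875 and 0.160 CPM, which are counts scaled to a common library size, and without molecular identifiers such floors and the intervals cover counting error alone. The epithelial markers EPCAM, KRT8 and KRT18 were at no less than 273, 1530 and 819 CPM in the mean of every group, whereas VIL1 and LGALS4 had group means down to 0.209 and 0.120 CPM, the lowest being in HCT116. In 2D, KRT20 had means of 0.646 CPM in HCT116 and 0.817 CPM in LS174T, and CDX2 had 1.43 CPM in HT29. CDH1 was at no less than 22.8 CPM in any group mean. Of the 8 epithelial markers, 4 were called higher in 3D and 1 lower in HT29, 6 higher in LS513, and 3 higher in each of HCT116 and LS174T. Of the 3 leukocyte markers, PTPRC reached 2 counts and CD3E none, while CD68, also known from macrophages and lysosomes, was called higher in 3D in all 4 lines, from 5.98 ± 1.42 to 13.5 ± 2.12 CPM in HT29, 19.3 ± 1.23 to 78.0 ± 15.2 CPM in LS513, 10.9 ± 2.06 to 41.3 ± 5.53 CPM in HCT116 and 3.01 ± 0.882 to 5.69 ± 0.636 CPM in LS174T. The fibroblast markers COL1A2 and COL3A1 reached no count and 2 counts, and the summed group means ranged from 0.391 to 16.4 CPM for the 4 fibroblast markers, mostly COL1A1, and from 0.0414 to 2.08 CPM for the 2 endothelial markers. Neither COL1A1 nor PDGFRB was called in any line. VWF, an endothelial marker, was called higher in 3D in LS513, from 0.0414 ± 0.0165 to 0.457 ± 0.0377 CPM, and in HCT116, from 0.260 ± 0.141 to 0.639 ± 0.120 CPM, while PECAM1 was not called. VWF had 1 to 2 counts in the 2D libraries of LS513, under the floor, and 12 to 14 in 3D. It passed the filter mainly through the 3D libraries of LS513 and HCT116, so its calls are descriptions. The part of CD68 or of these markers in the results was not tested. Replicate 2 of LS174T grown in 3D stood farthest from its group, at a mean Euclidean distance to the other libraries of its group of 56.2 in log2 CPM over all tested genes, against 20.8 to 44.3 for the other libraries. Results of the 8 genes in LS174T are therefore given with and without that library where it matters, while results of other genes include it. Levels below are in CPM on the TMM scale, as the mean ± SD of 3 libraries unless single libraries are given, and fold changes are log2 of 3D over 2D with their standard error (SE). Adjusted p-values are two-sided, from edgeR's quasi-likelihood test with Benjamini-Hochberg adjustment over all tested genes, and a gene was called at an adjusted p under 0.05.

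In 2D, the 4 lines differed widely in which metallothionein genes they expressed. HCT116 and LS174T held far more metallothionein mRNA than HT29 and LS513, and MT1E was not detectable in LS513. LS174T had counts of all 7 genes, among them MT1H with 17, 13 and 1 counts, the last under the floor. In bulk RNA, here and in every comparison, fewer cells that express a gene and less RNA per cell cannot be told apart. All 8 genes differed between the lines in 2D (adjusted p from 6.98e-19 for MT2A to 0.0423 for MTF1), where 91.7% of all tested genes did. MT1H and MT1M passed the filter through LS174T alone, so their difference between lines adds no support to this count. The call of MTF1 was lost without any 1 of 11 of the 12 libraries grown in 2D, and DESeq2 did not call MT1H (adjusted p = 0.0621). MTF1 varied least, between 29.2 CPM in LS513 and 42.4 CPM in HCT116.

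**Figure D1:**
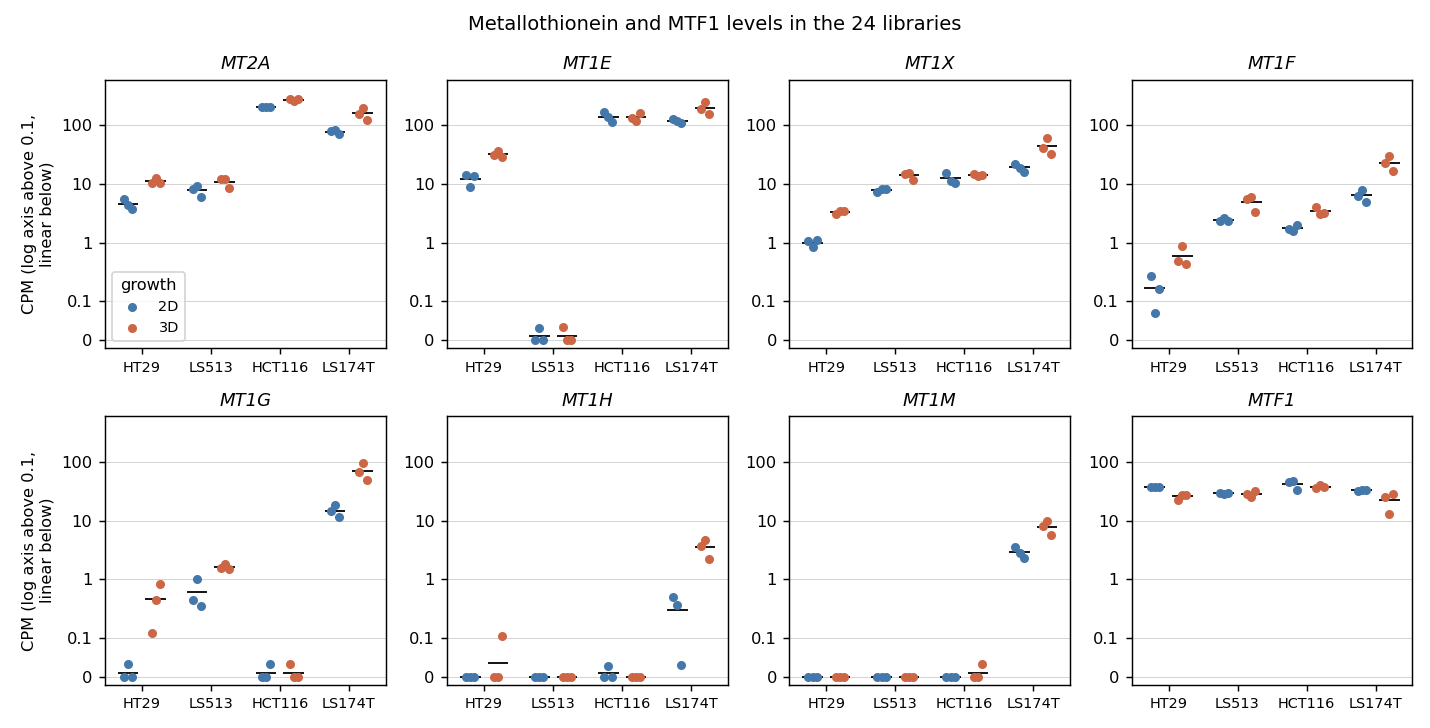
CPM of the 8 genes in each of the 24 libraries by line and growth condition (blue 2D, orange 3D), on an axis that is logarithmic above 0.1 CPM and linear below it, where each point is a library and each bar the mean of 3. MT1E stays at or near 0 in LS513, and MT1H and MT1M rise above the floor in LS174T.

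**Figure D2:**
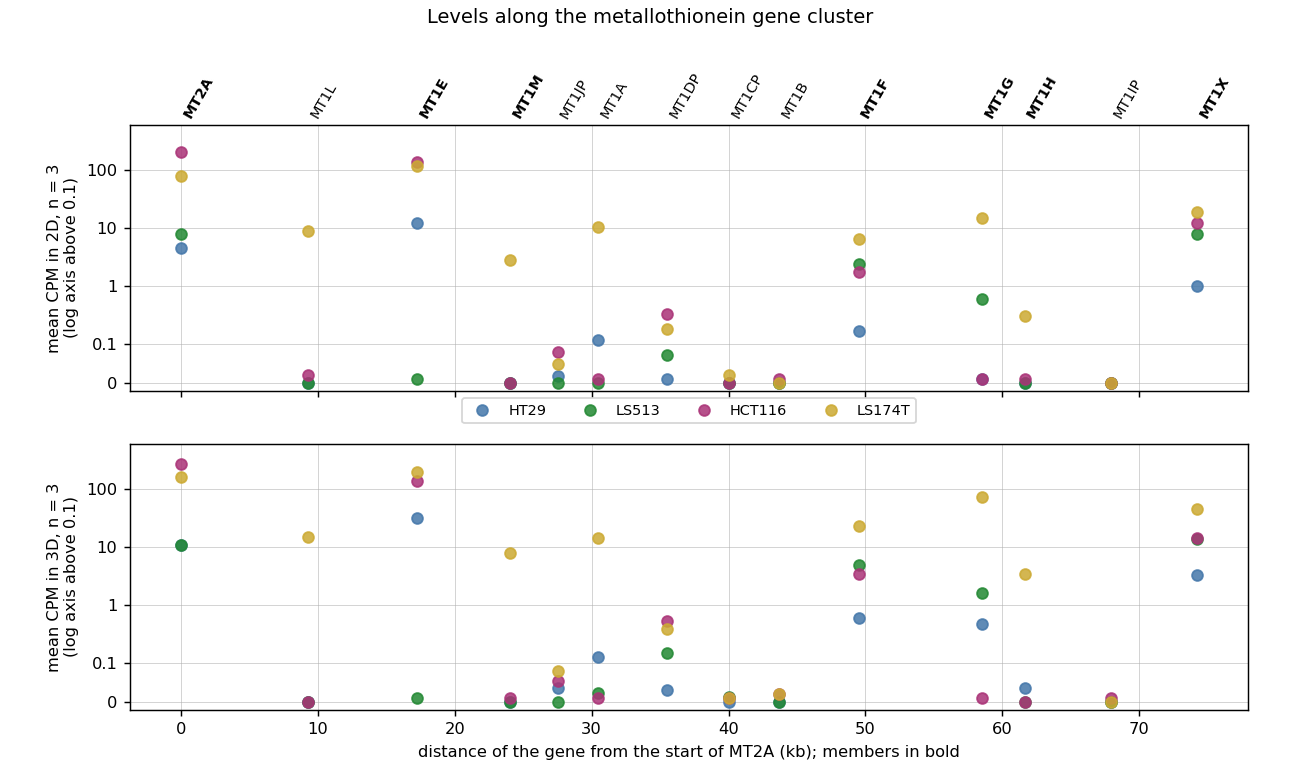
Mean CPM of metallothionein genes and pseudogenes against the distance of each gene from the start of MT2A in kb, for 2D (top) and 3D (bottom), with 1 point per line and the 7 described genes in bold. LS174T has points above 1 CPM at MT1L, MT1M, MT1A and MT1G in 2D where the other lines lie at 0.599 CPM or below.

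Because gene length affects counts, levels were compared between genes per kb of the main transcript. In HCT116 grown in 2D, MT2A came first with 264 CPM per kb, then MT1E with 198 and MT1X with 27.6. In LS174T grown in 2D, the order was MT1E with 169.7, MT2A with 99.5, MT1X with 42.6 and MT1G with 36.6 CPM per kb. HT29 was led by MT1E with 17.5 and LS513 by MT1X with 17.7 CPM per kb. The leading gene of the cluster thus differed between HCT116, LS513 and the other 2 lines. In 3D, MT1G stood at 177 CPM per kb in LS174T, below MT1E with 284 and MT2A with 203.

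The comparison of 3D with 2D asks how the growth condition of a line affects its gene expression. HT29 had 5 of the 7 metallothionein genes called higher, LS513 4, HCT116 1 and LS174T all 7, or 6 of 6 without MT1H. No metallothionein gene was called lower in any line, nor was any lower at an unadjusted p under 0.05 in edgeR. MTF1 was called lower in HT29 and LS174T. Among all tested genes, HT29 had 21.1% called higher and 19.6% lower, LS513 13.7% and 9.9%, HCT116 16.8% and 12.3%, and LS174T 13.1% and 9.15%. Counted over the genes above the floor in both growth conditions, the median log2 fold change of the metallothioneins was 1.56 in HT29 (4 genes), 0.93 in LS513 (4 genes), 0.29 in HCT116 (4 genes) and 1.44 in LS174T (7 genes, or 1.33 without MT1H), where the median of all tested genes lay between 0.00 and 0.02. A group was taken as above the floor where at least 1 library had more than 3 counts. MT1F was therefore included in HT29 with 8, 2 and 3 counts in 2D, and its change of 1.78 was the largest of those 4 genes.

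**Figure D3:**
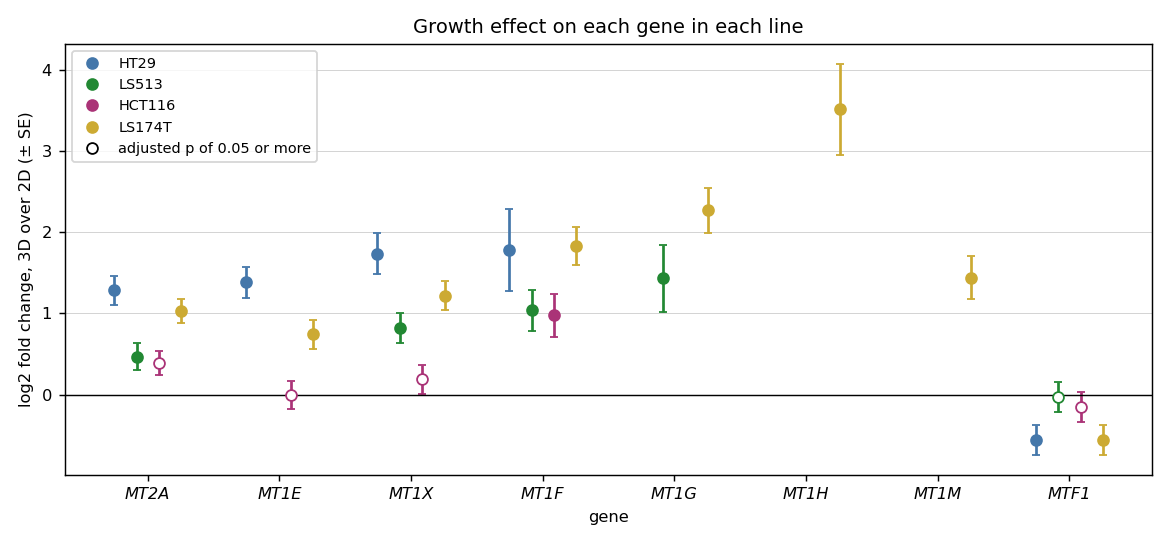
Log2 fold change of 3D over 2D with its SE (error bars) for each gene and line above the floor in both growth conditions, with filled points for an adjusted p under 0.05. The metallothioneins lie above 0 in HT29, LS513 and LS174T, for the 4 metallothionein genes plotted in HCT116 its point is the nearest to 0, and MTF1 lies below 0 in HT29 and LS174T.

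MT2A, the metallothionein that most tissues express, was measured well above the floor in all 4 lines. In HT29 it was at 5.45, 4.34 and 3.67 CPM in the 2D libraries and 10.2, 12.4 and 10.6 CPM in the 3D libraries. In LS174T it was at 80.3, 82.6 and 71.7 CPM in 2D and 156, 199 and 124 CPM in 3D. In both lines every 3D library was above every 2D library, and the log2 fold change was 1.28 ± 0.18 (adjusted p = 7.77e-06) in HT29 and 1.03 ± 0.15 (adjusted p = 4.64e-05) in LS174T. In LS513 it was at 8.33, 9.12 and 6.08 CPM in 2D and 11.9, 11.97 and 8.66 CPM in 3D. Here the lowest 3D library fell between the 2D libraries, the change was 0.47 ± 0.17 (adjusted p = 0.0457), and the call was lost without replicate 1 or 3 grown in 2D or replicate 1 or 2 grown in 3D (adjusted p from 0.0735 to 0.222) and in a fit of the 6 LS513 libraries by themselves (0.0731). HCT116 had the highest level, with 209, 205 and 208 CPM in 2D and 279, 258 and 279 CPM in 3D. These 2 groups did not overlap, and the change of 0.39 ± 0.15 (adjusted p = 0.0505) missed the threshold, which 5 of its 12 alternatives passed, DESeq2 among them (adjusted p = 0.0433).

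MT1E, the MT1 gene next to MT2A among the described genes, was the most abundant in HT29. Its levels in HT29 were 14.3, 8.81 and 13.9 CPM in 2D and 30.6, 36.6 and 28.7 CPM in 3D. In LS174T they were 128, 118 and 112 CPM in 2D and 189, 252 and 159 CPM in 3D. The 3D libraries were the higher ones in both lines, with changes of 1.38 ± 0.19 (adjusted p = 6.90e-06) in HT29 and 0.74 ± 0.18 (adjusted p = 0.00482) in LS174T. In HCT116 the values were 166, 140.1 and 112 CPM in 2D and 135, 117 and 165 CPM in 3D. These overlapped almost fully, and the change was -0.00 ± 0.18 (adjusted p = 1). In LS513 no library had more than 1 count of MT1E, so no fold change is given for it. The LS513 libraries therefore lacked detectable MT1E at a depth at which the next lowest group, HT29 in 2D, had at least 253 counts per library.

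MT1X, at the far end of the cluster, was detected in all 24 libraries, within the limits given above for its shared windows. In HT29 it rose from 1.06, 0.826 and 1.10 CPM in 2D to 3.02, 3.46 and 3.41 CPM in 3D. In LS513 it rose from 7.34, 8.34 and 8.21 to 14.9, 15.6 and 11.7 CPM, and in LS174T from 22.2, 18.9 and 16.3 to 41.3, 60.3 and 32.0 CPM. In all 3 lines the groups stood apart, and the changes were 1.74 ± 0.25 (adjusted p = 1.29e-05) in HT29, 0.82 ± 0.19 (adjusted p = 0.00232) in LS513 and 1.22 ± 0.18 (adjusted p = 4.70e-05) in LS174T. In HCT116 it was at 15.4, 11.4 and 10.5 CPM in 2D and 14.7, 13.7 and 14.1 CPM in 3D. The highest 2D library lay above all 3D libraries there, and the change was 0.19 ± 0.18 (adjusted p = 0.475).

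MT1F, another MT1 isoform gene, was the one metallothionein gene called higher in 3D in all 4 lines, and the one called in HCT116, where MT2A also passed under the alternatives named above. In HCT116 it was at 1.72, 1.55 and 2.02 CPM in 2D and 4.09, 3.10 and 3.24 CPM in 3D. In LS513 the levels were 2.32, 2.598 and 2.31 CPM in 2D and 5.53, 5.97 and 3.36 CPM in 3D, and in LS174T 6.25, 7.91 and 4.98 and 22.4, 29.6 and 16.3 CPM. The groups did not overlap in these lines, and the changes were 0.98 ± 0.27 (adjusted p = 0.00767) in HCT116, 1.04 ± 0.26 (adjusted p = 0.00451) in LS513 and 1.84 ± 0.23 (adjusted p = 8.06e-06) in LS174T. In HT29 its counts were low, with 8, 2 and 3 counts in the 2D libraries and 16, 25 and 12 in the 3D libraries. The change there was 1.78 ± 0.50 (adjusted p = 0.00722), and without replicate 2 grown in 2D it was 1.38 with an adjusted p of 0.0540.

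MT1G, the gene on the minus strand, was abundant in LS174T, low in LS513 and HT29 and at or under the floor in HCT116. In LS174T it was at 14.9, 18.4 and 11.3 CPM in 2D and 68.2, 97.4 and 49.4 CPM in 3D. Every 3D library was above every 2D library, and the change was 2.27 ± 0.27 (adjusted p = 3.59e-06). In LS513 the levels were 0.450, 0.997 and 0.348 CPM in 2D and 1.58, 1.85 and 1.49 CPM in 3D. These did not overlap either, and the change of 1.44 ± 0.41 (adjusted p = 0.0130) lost its call without replicate 1 or 3 grown in 2D or replicate 2 grown in 3D (adjusted p between 0.0564 and 0.0690). In HT29 the 2D libraries had 0, 1 and 0 counts and the 3D libraries 4, 13 and 23. With so few counts in 2D the difference is given as the ratio of the summed counts per effective library size, which was 34.1 (exact 95% interval from 5.78 to 1381), and edgeR called the gene at an adjusted p of 0.00220. HCT116 had 2 counts of MT1G over its 6 libraries.

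MT1H and MT1M, the 2 isoform genes that LS174T alone expressed, had more counts in 3D in that line. MT1H had 17, 13 and 1 counts in the 2D libraries of LS174T and 123, 126 and 71 in the 3D libraries. MT1M was at 3.50, 2.79 and 2.31 CPM in 2D and 7.97, 9.70 and 5.71 CPM in 3D. The groups were separate for both genes, and the changes were 3.52 ± 0.56 (adjusted p = 5.54e-04) for MT1H and 1.44 ± 0.26 (adjusted p = 0.00215) for MT1M. DESeq2 gave MT1H a similar change of 3.55 with an adjusted p of 0.327, so its call depends on the test. Since MT1H passed the filter only through its 3D libraries of LS174T, its change is a description and adds no support to the count of genes called in that line. Outside LS174T, the highest count of any library was 3 for MT1H, in HT29 grown in 3D, and 1 for MT1M, so neither was detectable there at this depth.

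MTF1, the zinc-sensing activator, was called lower in 3D in HT29 and LS174T and was not called in LS513 and HCT116. In HT29 it was at 38.1, 38.0 and 37.7 CPM in 2D and 22.4, 27.4 and 27.9 CPM in 3D. In LS174T it was at 32.2, 33.7 and 32.8 CPM in 2D and 25.0, 12.8 and 29.02 CPM in 3D. The 3D libraries were the lower ones in both lines, with changes of -0.55 ± 0.19 (adjusted p = 0.0204) in HT29 and -0.56 ± 0.19 (adjusted p = 0.0335) in LS174T. The call in HT29 was lost without 5 of the 6 libraries taken singly (adjusted p up to 0.127, without replicate 1 grown in 3D). The call in LS174T was lost without 4 of its libraries, each 2D library and replicate 2 grown in 3D, and in a fit of the 6 LS174T libraries by themselves (adjusted p = 0.184). Without that 3D library the change was -0.28 with an adjusted p of 0.198. In LS513, MTF1 was at 30.02, 28.4 and 29.1 CPM in 2D and 28.2, 25.5 and 31.7 CPM in 3D, and in HCT116 at 46.4, 48.1 and 32.7 and 36.2, 40.8 and 37.5 CPM. The groups overlapped in both lines, with changes of -0.03 ± 0.18 (adjusted p = 0.968) in LS513 and -0.15 ± 0.18 (adjusted p = 0.576) in HCT116.

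Without replicate 2 of LS174T grown in 3D, the 7 metallothionein genes were still called higher in that line. MT1H, which passed the filter only through 3D libraries of LS174T, adds no support to this count. The change of MT2A was then 0.85 (adjusted p = 1.93e-04), that of MT1E 0.55 (adjusted p = 0.0439) and that of MT1G 1.99 (adjusted p = 2.46e-05). Within its group that library had the highest level of each of the 7 genes and the lowest level of MTF1. The part of that library's distance from its group in these levels was not tested.

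In the order of the 8 groups, several neighbours were not separated beyond their spread. For MT2A the order fell from HCT116 in 3D through HCT116 in 2D, LS174T in 3D and LS174T in 2D to HT29 in 3D, LS513 in 3D, LS513 in 2D and HT29 in 2D. HT29 and LS513 grown in 3D were not separated in MT2A (adjusted p = 0.922), with 11.1 ± 1.18 and 10.9 ± 1.90 CPM. For MT1E the highest group was LS174T in 3D with 200.1 ± 47.5 CPM, followed by both HCT116 groups and LS174T in 2D, and the test did not separate HCT116 in 3D from LS174T in 2D (adjusted p = 0.268). For MT1X, HCT116 in 3D, LS513 in 3D and HCT116 in 2D could not be told apart in turn (adjusted p = 0.977 and 0.398). For MTF1 none of the 7 neighbouring pairs passed the test, with adjusted p-values between 0.326 and 0.990.

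Whether the growth effect itself differed between lines was tested by the interaction of line and growth condition. It differed for 3 of the 8 genes, MT1E (adjusted p = 0.00385), MT1X (0.00349) and MT2A (0.0151), where 17.1% of all tested genes did. With a replicate block, MT1E missed the threshold (0.0587). Each of the 6 pairs of lines was then compared across all tested genes. The growth effect of MT1E was larger in HT29 than in HCT116 by 1.39 ± 0.26 on the log2 scale (adjusted p = 9.22e-04). That of MT1X was larger in HT29 than in HCT116 by 1.55 ± 0.31 on the log2 scale (adjusted p = 0.00208), and smaller in HCT116 than in LS174T, with a difference of -1.03 ± 0.25 on the log2 scale (adjusted p = 0.0172). That of MT2A was larger in HT29 than in LS513 by 0.82 ± 0.25 on the log2 scale (adjusted p = 0.0297) and larger than in HCT116 by 0.89 ± 0.23 on the log2 scale (adjusted p = 0.0169). The pairs with LS174T include its replicate 2 grown in 3D and were not tested without it. The interaction test of MT1X still passed without that library (adjusted p = 6.22e-04). MT1F, called in each line, had no difference that passed the test (adjusted p = 0.189), and neither had MT1G (0.268) nor MTF1 (0.297). With all genes of at least 1 count, MT1F (0.0341) and MT1G (0.00453) passed, and DESeq2 also called MT1G (0.0430). A p that misses the threshold does not show that the lines respond alike.

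The CPM of the 7 metallothionein genes were summed in each library as a description of the metallothionein mRNA of a line. The sum was 18.0 ± 3.56 CPM in HT29 grown in 2D and 47.4 ± 5.51 CPM in 3D, which is 2.64-fold. In LS513 it was 18.8 ± 2.10 and 31.5 ± 5.50 CPM (1.67-fold). In LS174T it was 241 ± 20.0 and 509.9 ± 133 CPM (2.11-fold), with replicate 2 the highest of the 3D libraries at 652.6 CPM and the others at 488 and 389 CPM. The sum of HCT116 was already 361 ± 29.7 CPM in 2D and reached 429 ± 34.5 CPM in 3D (1.19-fold), and its highest 2D library (392.2 CPM) was just below its lowest 3D library (392.3 CPM).

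In HCT116, MT2A made up 57.4% in 2D and 63.4% in 3D, and MT1E 38.6% and 32.5%. In HT29, MT1E made up 68.5% and 67.4% and MT2A 25.0% and 23.3%. LS513 was divided mainly between MT1X, with 42.3% and 44.6%, and MT2A, with 41.7% and 34.4%. In LS174T the share of MT1G went from 6.16% to 14.1%, while that of MT1E went from 49.5% to 39.2%. These shares are of CPM and not per kb, so they rank mRNA counts and not molecules.

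**Figure D4:**
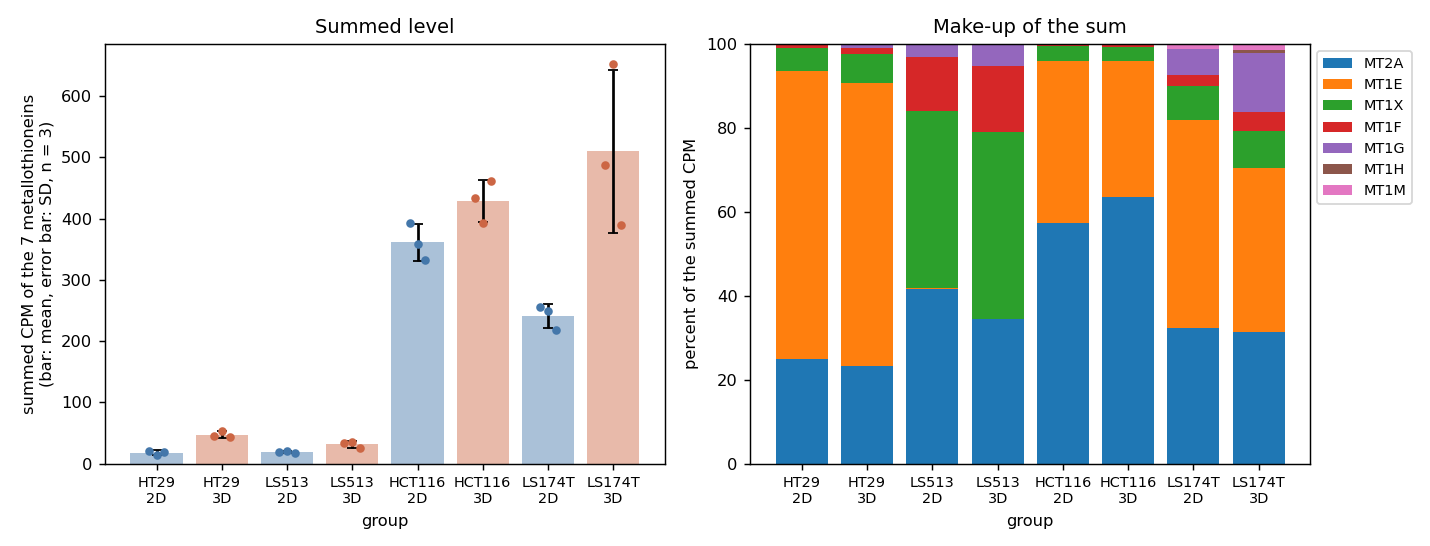
Summed CPM of the 7 metallothionein genes per group (left, bar: mean, error bar: SD, points: 3 libraries) and the percent of that sum from each gene (right). The sum is lowest in HT29 and LS513 and highest in HCT116 and in LS174T grown in 3D, and the leading gene is MT2A in HCT116 and MT1E in HT29 and LS174T.

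Of 14 other metallothionein genes and pseudogenes, 3 passed the filter. MT1A, a further MT1 isoform gene, and MT1L, a transcribed pseudogene of the cluster, were expressed in LS174T. MT1A was at 10.3 ± 0.608 CPM in 2D and 14.7 ± 2.65 CPM in 3D in that line, a change of 0.50 ± 0.20 (adjusted p = 0.0811) that was not called. MT1L went from 8.97 ± 0.872 to 15.3 ± 2.99 CPM, a change of 0.77 ± 0.22 (adjusted p = 0.0241), and was the one gene of these called in any line. In the other 3 lines MT1L had group means of at most 0.0201 CPM, below the floor. MT1DP, a pseudogene, was below 1 CPM in every group. MT3 and MT4, the metallothioneins known from brain and stratified epithelium, reached 6 and 22 counts at most, both in LS174T grown in 3D.

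Zinc reaches metallothioneins through importers of the SLC39 family and is removed from the cytosol by the SLC30 family, so both were examined. Of the 10 SLC30 genes 8 were tested. In HT29, 1 was called higher and 3 lower, in LS513 0 and 1, in HCT116 0 and 2, and in LS174T 0 and 2. SLC30A6, which forms with SLC30A5 the transporter that loads zinc into the early secretory pathway, was called lower in all 4 lines, from 46.7 ± 2.59 to 33.0 ± 2.21 CPM in HT29 (-0.50 ± 0.11, adjusted p = 6.95e-04) and from 50.1 ± 5.48 to 30.3 ± 2.82 CPM in HCT116 (-0.73 ± 0.11, adjusted p = 2.46e-05). SLC30A5 was called lower in HT29 (-0.48 ± 0.13, adjusted p = 0.00508) and HCT116 (-0.60 ± 0.13, adjusted p = 0.00129). SLC30A7, a zinc transporter of the Golgi, was called lower in HT29 (-0.53 ± 0.16, adjusted p = 0.00856) and LS174T (-0.43 ± 0.15, adjusted p = 0.0498). SLC30A2, which loads zinc into vesicles, was above the floor in HT29 alone, with 0.137 ± 0.137 CPM in 2D and 0.649 ± 0.0442 CPM in 3D (2.39 ± 0.63, adjusted p = 0.00887). Its HT29 libraries had 0 to 5 counts in 2D and 18 to 20 in 3D, and it passed the filter through those 3D libraries alone. Its change is therefore a description and adds no support to the count called higher in HT29. SLC30A1, the plasma membrane exporter and known MTF1 target, was singled out after its values were seen. It was called in no line. Its change was -0.00 ± 0.15 for HT29, 0.04 ± 0.15 for LS513, -0.19 ± 0.15 for HCT116 and 0.20 ± 0.15 for LS174T.

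Of the 14 SLC39 genes 12 were tested. In HT29, 3 were called higher and 2 lower, in LS513 2 and 3, in HCT116 4 and 1, and in LS174T 3 and 1. SLC39A13, which releases zinc from intracellular vesicles, was called higher in all 4 lines, by 0.79 ± 0.15 (adjusted p = 1.81e-04) in HT29 and 0.42 ± 0.15 (adjusted p = 0.0385) in LS513. SLC39A5, a zinc importer of the basolateral membrane of the intestinal epithelium, was called higher in 3 lines. HT29 went from 0.903 ± 0.205 to 6.76 ± 1.60 CPM, a change of 2.93 ± 0.32 (adjusted p = 3.53e-07). LS513 went from 7.22 ± 0.352 to 15.4 ± 3.36 CPM, a change of 1.09 ± 0.26 (adjusted p = 0.00328), and LS174T from 0.465 ± 0.240 to 2.34 ± 1.17 CPM, a change of 2.30 ± 0.35 (adjusted p = 8.31e-05). In HCT116 it was at or under the floor in both growth conditions. SLC39A6, an importer of the plasma membrane, was called lower in HT29 (-0.57 ± 0.13, adjusted p = 0.00109), LS513 (-0.52 ± 0.13, adjusted p = 0.00436) and LS174T (-0.52 ± 0.13, adjusted p = 0.00616). SLC39A7, which releases zinc from the endoplasmic reticulum, was called higher in HT29 (0.54 ± 0.08, adjusted p = 1.13e-05) and HCT116 (0.29 ± 0.08, adjusted p = 0.00695). SLC39A14, an importer of zinc, iron and manganese, was called lower in HT29 (-0.74 ± 0.10, adjusted p = 2.97e-06) and HCT116 (-0.29 ± 0.09, adjusted p = 0.0239), and its relative SLC39A8 was called lower in LS513 (-1.06 ± 0.14, adjusted p = 8.70e-06).

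**Figure D5:**
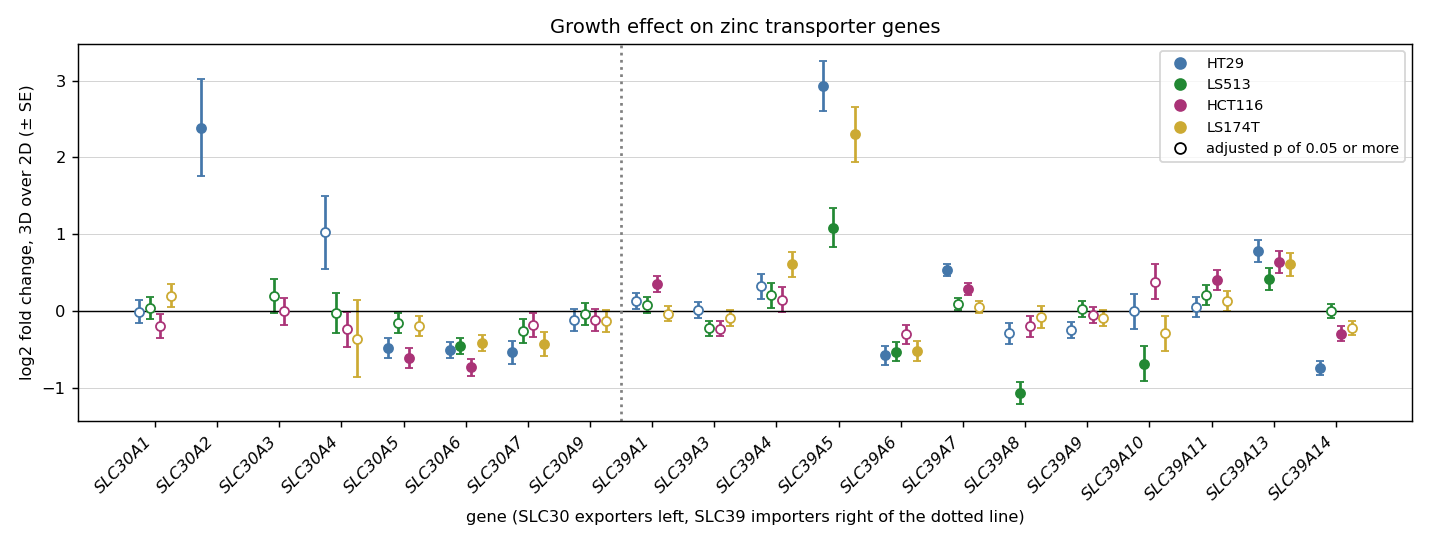
Log2 fold change of 3D over 2D with its SE (error bars) for the tested SLC30 genes (left of the dotted line) and SLC39 genes (right) above the floor in both growth conditions, 1 point per line, filled for an adjusted p under 0.05. SLC30A6 is filled and below 0 in all 4 lines, SLC39A13 is filled and above 0 in all 4, and SLC39A5 is filled and above 0 in HT29, LS513 and LS174T.

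All 15 genes of copper handling were tested, and 4 were called higher and 2 lower in HT29, 2 and 2 in LS513, 3 and 1 in HCT116, and 3 and 0 in LS174T. CCS, which hands copper to superoxide dismutase, was called higher in HT29 (0.49 ± 0.17, adjusted p = 0.0295), HCT116 (0.80 ± 0.17, adjusted p = 0.00139) and LS174T (0.62 ± 0.17, adjusted p = 0.0126). ATP7B, a copper-exporting ATPase, was called higher in HT29 (0.77 ± 0.14, adjusted p = 2.06e-04) and LS513 (0.41 ± 0.13, adjusted p = 0.0246), as was COMMD1, which takes part in copper export. STEAP2, a metalloreductase, was called lower in HT29 (-1.13 ± 0.19, adjusted p = 9.12e-05) and LS513 (-0.92 ± 0.21, adjusted p = 0.00267). Of the factors that bring copper to cytochrome c oxidase, SCO1 was called lower in HT29, LS513 and HCT116 and SCO2 higher in HCT116 and LS174T, the latter with overlapping groups. SCO2 has 2 gene identifiers, and its result is that of the identifier with more counts. Of 6 other factors known at metallothionein promoters, USF2 was the one called in more than 1 line, higher in HT29 (0.37 ± 0.10, adjusted p = 0.00514), HCT116 (0.30 ± 0.10, adjusted p = 0.0302) and LS174T (0.35 ± 0.10, adjusted p = 0.0176). The shares called in these lists are set against the shares of all tested genes given above, and no list was tested as a set.

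Likeness between genes was described over the 24 libraries with each line's mean removed, for the metallothionein genes with group means above the floor in all 4 lines. Pearson's r of log2 CPM was 0.85 for MT1F and MT1X, 0.84 for MT1F and MT2A and 0.92 for MT1X and MT2A. MTF1 gave -0.71 with MT1F, -0.75 with MT1X and -0.77 with MT2A. These values are descriptions over libraries that share 4 lines and 2 growth conditions, and some MT1F libraries of HT29 had few counts. They include replicate 2 of LS174T grown in 3D, which had the lowest MTF1 of its group (12.8 CPM) and its highest metallothionein levels. The part of that library in these values was not tested. Among 16619 other genes, those most like the mean of the 7 scaled metallothioneins over these libraries, with line means removed and with genes that are at the floor in some lines included, were ARHGDIG (r = 0.935), RHOB (0.934), AC009086.2 (0.933), DQX1 (0.932) and ENSG00000259827 (0.930), the last being AC026461.1, which shares exonic bases with MT1X. Without removing line means, they were SNORD58B (0.964), MIR762HG (0.961), KISS1R (0.961), LINC01569 (0.958) and ENSG00000284648 (0.955), and these rest mainly on the differences between the 4 lines.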

How the data were processed

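Messenger RNA was selected by poly(A), made into strand-specific libraries and sequenced as single reads. The values the authors deposited are gene-level read counts of every technical replicate, not normalized. Per the submitters' processing notes, reads were trimmed with Trim Galore 0.4.1, aligned with STAR and counted with HTSeq 0.5.3. The study states that reads aligned more than once were removed and that an Ensembl annotation was used, whereas the labels name hg19. Of the 58243 identifiers, 57980 are in GENCODE 29 (GRCh38), which was used for positions and names. The 191 sets of counts were summed to 24 libraries of 8 technical replicates (7 for 1 library of HT29 grown in 3D). Library totals of 18723942 to 34277421 counts give a floor of 3 counts of 0.0875 to 0.160 CPM.

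Analyses used R 4.3.3. The deposited counts, summed per library, were fitted with edgeR 4.0.16 (filterByExpr, TMM factors, robust quasi-likelihood), in a model of the 8 groups over the 24 libraries. Contrasts were 3D against 2D within a line, the interaction of line and growth, and lines against each other in 2D. Benjamini-Hochberg adjustment covered the 19387 tested genes. The alternatives tried were DESeq2 1.42.0 in place of edgeR, its size factors in place of TMM, a filter of only 1 count, the replicate number as a block, counts without technical replicate d, separate fits of 6 libraries, and the omission of single libraries. Coding sequences come from GENCODE transcripts, and the promoter sequences from RefSeq (GRCh38.p14).

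The 8 genes and the lists were chosen with earlier results of these data known. Genes of the lists are named where they were called in 1 direction in at least 2 lines, or were called with an absolute log2 fold change of at least 1 in any line. The genes most like the 7 metallothioneins are the 5 with the highest Pearson's r with their scaled mean log2 CPM, before and after line means were removed, among tested genes with a mean of at least 1 CPM in a group.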

Additional observations from a re-analysis of the deposited data

Results flagged for a closer look

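The growth effect of 3 metallothionein genes differed between the lines by the interaction test of edgeR, MT1E with an adjusted p of 0.00385, MT1X with 0.00349 and MT2A with 0.0151. No LS513 library had more than 1 count of MT1E. HT29 and HCT116 stood farthest apart for MT1X and MT2A, with log2 fold changes of 1.74 and 0.19 for MT1X and of 1.28 and 0.39 for MT2A. These 3 calls held without each of the 24 libraries in turn.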

How the results depend on the processing

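Of 18 called changes of the 8 genes with levels above the floor, 12 were called under all 12 alternatives run for them, and the calls lost elsewhere are given beside each gene. For 41 called changes of the named list genes above the floor, the call was lost in 51 fits with a library left out and not in 195. Under the other alternatives the call of these list genes was lost in 26 fits and not in 220. The number of genes called in HCT116 was 1, and 2 with the size factors of DESeq2, with all genes that have at least 1 count, with the replicate block, with only the 6 libraries of the line and with DESeq2, where MT2A passed as well. The number of genes whose growth effect differed between lines was 3, and 5 with all genes that have at least 1 count, where MT1F and MT1G passed as well, and 4 with DESeq2, where MT1G did (adjusted p = 0.0430). Leaving out 1 library at a time, the number called was 4 to 6 in HT29 (6 with all libraries), 2 to 4 in LS513 (4), 1 to 1 in HCT116 and 7 to 8 in LS174T (8). The numbers for LS174T include MT1H, which adds no support to them. LS513 fell to 2 without replicate 1 or 3 grown in 2D or replicate 2 grown in 3D. The number that differed between lines in 2D was 7 to 8, MTF1 being the one lost, and the number with a differing growth effect 3 to 3. The change of MT1E in HCT116 (-0.00) turned positive with the size factors of DESeq2 (0.0044), without technical replicate d (0.0089) and with DESeq2 (0.0045), and ran from -0.17 to 0.14 with single libraries left out. That of MTF1 in LS513 ran from -0.12 to 0.034. The cause of these moves was not tested. Replicate numbers are shared between growth conditions, but in HT29 only numbers 1 and 3, so a replicate block rests on those pairs for its growth effect. Deviations of 11 same-numbered pairs correlated at only -0.21 to 0.22 and 3 of 11 matched their own number best, so the replicate block is given here as an alternative only. With it, 5 genes were called in HT29, where MTF1 lost its call (-0.62, adjusted p = 0.0627), 4 in LS513 and 8 in LS174T, and 2 growth effects differed between lines (MT1E: adjusted p = 0.0587). Depth limits MT1E in LS513, MT1G in HCT116 and MT1H and MT1M outside LS174T, where counts were at or under the floor.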
